A study of Homo sapiens with 4 samples.

Results

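The desmosome genes were the 12 probes, of 10 genes, that the array names DSP, DSG2, DSG3, DSC2, DSC3, PKP1, PKP2, PKP3, PPL or EVPL, out of 41000 different probes under 30982 names on the array. Their probes were found by the array's gene names, and DSC3 and PKP2 have 2 probes each. A desmosome is a spot-like junction that ties neighbouring epithelial cells together and anchors their keratin filaments. Its desmosomal cadherins, the desmogleins (DSG) and desmocollins (DSC), reach across the gap between the cells, armadillo proteins (the plakophilins, PKP, and plakoglobin, JUP) bind their tails inside the cell, and plakins such as desmoplakin (DSP) connect this plaque to keratin. Periplakin (PPL) and envoplakin (EVPL) are plakins that partner each other at the cell border and in the cornified envelope of skin. In colon epithelium the usual desmosomal cadherins are DSG2 and DSC2, while DSG3, DSC3 and PKP1 are best known from stratified epithelia.

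RNA of HCT116, an established human colon cancer cell line, was hybridised to 4 Agilent 2-colour arrays. Per the labels, Cy5 held RNA of a clone carrying N-BLR shRNA, #3-1 on 2 arrays and #4-7 on 2 arrays, and Cy3 held RNA of empty vector HCT116 cells on all 4. N-BLR is a long non-coding RNA, and the question of the comparison was which protein-coding genes differ when it is silenced. Each shRNA line is a single clone and the control RNA came from an empty vector clone, so clone and silencing cannot be told apart. The labels speak of lentiviral transduction and the methods of transfection of a pSuper.retro.puro shRNA vector with G418 selection. Replicates are biological per the labels and duplicate arrays per the methods, and nothing says that cultures were separate, so the p-values may measure technical spread only. No probe carries the name N-BLR, and its level was not checked here.

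On each array, 68.5% to 71.8% of the spots were well above background in Cy3, and 71.5% to 72.6% in Cy5. Of the 8 colon epithelium markers, EPCAM, KRT8, KRT18, KRT19 and CDX2 were measured, and the probes of VIL1, CDH17 and CDX1 were not well above background on any array in either channel. Among the 6 fibroblast, 3 endothelium and 4 leukocyte markers, 2, 1 and 3 were measured. The probes of COL1A2, COL3A1, LUM, PTPRC, PECAM1 and CDH5 were not well above background on any array.

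The single channels went against the labels, in a comparison added after the data were seen. Cy3, which should hold the same control RNA on all arrays, differed between the #3-1 and the #4-7 arrays in 7542 of 41000 probes at an unadjusted limma p under 0.001, which is 18.4% of them. Cy5, which should hold a different clone on each pair, differed in 38 probes, or 0.0927%. The dyes were not reassigned, and below, values are given by channel as the labels name it. With the dyes exchanged in the labels, each Cy5 over Cy3 ratio would stay as given, and its reading as clone over empty vector would turn in sign. Lower or higher in a clone means here lower or higher in Cy5 than in Cy3 on that clone's arrays. By the labels, the direction of these ratios is opposite to that which the study gives for E-cadherin and vimentin. The study gives that direction by qRT-PCR and immunofluorescence as well as by array. Of the markers of other cell types, COL1A1 (log2 ratios of -0.59 and -1.13 for #3-1 and #4-7) and a VWF probe (-0.35 and -0.44) were lower in both clones. Their part in the results was not tested.

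Of the 12 member probes, 9, from 8 genes, were measured, meaning well above background in both channels on at least 1 array. The DSG3 probe, the PKP1 probe and 1 of the 2 DSC3 probes (A_24_P344416) were not well above background in either channel on any array. No member spot was saturated or an outlier, and each probe had 1 spot per array. As these are bulk samples, fewer cells of a type and less RNA per cell cannot be told apart.

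In Cy5 relative to Cy3, the member genes did not move one way. PPL and PKP3 were lower on all 4 arrays, DSC3 and DSC2 were higher on all 4, EVPL was higher on the #3-1 and lower on the #4-7 arrays, and DSP differed little. At an unadjusted limma p under 0.001, 3 member probes were lower and 3 higher on the #3-1 arrays, 25.0% of the 12 each way, where 16.4% of all probes were lower and 16.2% higher. On the #4-7 arrays, 3 were again lower and 3 higher, against 15.0% and 16.0% of all probes. In both clones 2 member probes were lower (7.64% of all probes), 2 were higher (7.76%), and 1 moved in opposite directions (3.56%). With 12 probes these counts are small, and by the labels both clones are set against the same control. The median log2 ratio of the 9 measured member probes was -0.06 on the #3-1 and -0.11 on the #4-7 arrays, beside 0.02 and 0.02 over the 28569 probes well above background. Their median absolute log2 ratio was 0.30 and 0.43, beside 0.21 and 0.20 over those probes.

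**Figure D1:**
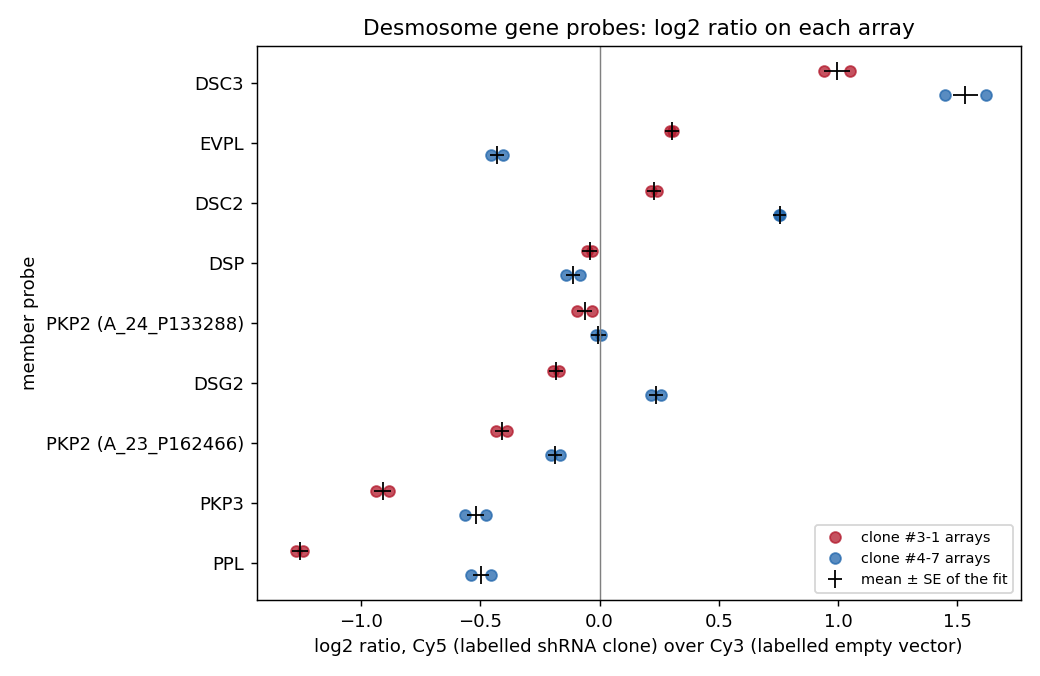
Log2 ratio of Cy5 (labelled shRNA clone) over Cy3 (labelled empty vector) of the 9 measured member probes, 1 point per array and a bar for the fitted mean ± SE of each clone's 2 arrays. PPL and PKP3 lie left of 0 and DSC2 and DSC3 right of it for both clones, while EVPL and DSG2 lie on opposite sides of 0 for #3-1 and #4-7.

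Among the desmosomal cadherins, DSC2 and DSC3 were higher in Cy5 than in Cy3 for both clones. DSC2, the desmocollin of simple epithelia, had normalized log2 intensities in Cy5 of 9.80 and 9.74 on the #3-1 arrays and 9.66 and 9.55 on the #4-7 arrays. In Cy3 these were 9.56 and 9.52 on the #3-1 arrays, and 8.90 and 8.79 on the #4-7 arrays. Cy5 was thus above Cy3 on every array, by more on the #4-7 arrays, and the low values were those of Cy3 there. The log2 ratio was 0.24 and 0.22 on the #3-1 arrays and 0.76 and 0.75 on the #4-7 arrays. The fit gave a log2 ratio of 0.23 ± 0.03 (SE, n = 2, adjusted p = 0.00146) for #3-1 and 0.76 ± 0.03 (SE, n = 2, adjusted p = 4.21e-05) for #4-7. The #3-1 value passed with an unadjusted limma p of 0.000399 and lost that call under 10 of 13 alternative settings, where it stayed between 0.22 and 0.28.

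DSC3, the desmocollin of stratified epithelia, had the highest ratios among the measured member probes. Its probe A_23_P208029 (chr18:26828129-26828188 on the minus strand of hg17) had Cy5 log2 intensities of 8.19 and 8.16 on the #3-1 arrays and 8.20 and 8.05 on the #4-7 arrays. Its Cy3 log2 intensities were 7.25 and 7.11 on the #3-1 arrays, and 6.75 and 6.43 on the #4-7 arrays, where Cy3 was not well above background. So Cy5 was alike on all arrays and above Cy3 on each of them. For #3-1 the fitted log2 ratio was 1.00 ± 0.05 (SE, n = 2, adjusted p = 8.81e-05). For #4-7, Cy5 was at least 2.57-fold higher than Cy3 (adjusted p = 3.72e-05), a bound taken against the probe's own Cy3 signal, since this lay above the lowest signal well above background. The channels' mean log2 intensities behind the bound were 8.06 in Cy5 and 6.70 in Cy3 after loess and Aquantile normalization. This size rests on the background correction: with Feature Extraction's processed signals the log2 ratio of #3-1 was 1.90 and did not pass, with an unadjusted limma p of 0.0031. The other DSC3 probe, not well above background in either channel, had fitted log2 ratios of -0.03 and 0.19, and neither passed.

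DSG2, the desmoglein found in nearly all tissues with desmosomes, had Cy5 log2 intensities of 10.19 and 10.19 on the #3-1 arrays and 10.23 and 10.15 on the #4-7 arrays. Its Cy3 log2 intensities were 10.38 and 10.36 on the #3-1 arrays and 9.97 and 9.94 on the #4-7 arrays. Cy5 did not separate the clones' arrays, while all Cy3 values of the #3-1 arrays lay above those of the #4-7 arrays. The fitted log2 ratio was -0.18 ± 0.03 (SE, n = 2, adjusted p = 0.00431) for #3-1, which missed the threshold with an unadjusted limma p of 0.00151. For #4-7 it was 0.24 ± 0.03 (SE, n = 2, adjusted p = 0.00171), and this call was lost under 9 of 13 alternative settings. DSG3, the desmoglein that is a target of autoantibodies in pemphigus vulgaris, was not well above background in either channel on any array, so no ratio is read for it.

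The DSG2 and DSC2 probes are shown because both read the colon epithelial cadherins, and because the DSC2 probe lies in more than 1 exon. The array's positions for it span 814 bases, chr18:26904794-26905607 on the minus strand of hg17, for a sequence of 60 bases, so its bases are split by an intron. The DSG2 probe lies at chr18:27380458-27380517 on the plus strand of hg17. Both sequences have 2 reading frames without a stop codon over their whole length.
DSG2 probe: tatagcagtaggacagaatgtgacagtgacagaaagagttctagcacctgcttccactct
DSC2 probe: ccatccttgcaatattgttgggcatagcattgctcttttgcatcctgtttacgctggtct

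All measured desmosomal cadherins lie together on chromosome 18, with the desmocollins at one end of the cluster and DSG2 at the other. Between and beside them, the probes of DSC1, DSG1, DSG4 and DSG3 and the second DSC3 probe were not well above background. The log2 ratio was lower for #3-1 than for #4-7 in DSC2 and DSG2, with differences of -0.53 and -0.42. That of DSC3 was lower too, but Cy3 was not well above background on the #4-7 arrays, and no exact difference is read. Within 2 Mb of the cluster on either side, 23 other probes were on the array and 15 of them were measured. None of the 23 was lower for #3-1 than for #4-7 past the threshold, and 1, LOC284242, which was not measured, was higher. Several missed the threshold with differences near that of DSG2. The nearest measured probe beyond DSG2, named AI458424, had a log2 difference of -0.40 with an unadjusted limma p of 0.0162. It is centred at position 27382420, close to the DSG2 probe at 27380488, and whether it reads DSG2 itself was not tested. A B4GALT6 probe had -0.37 with an unadjusted limma p of 0.00782, MCART2 had -0.34 with 0.00184, and THC2274733 had -0.31 with 0.00174. Against Cy3, 6 of the 23 were higher in Cy5 on the #4-7 arrays and 3 on the #3-1 arrays, where 16.0% and 16.2% of all probes were. On each clone's arrays 3 were lower, where 15.0% of all probes were for #4-7 and 16.4% for #3-1. A difference particular to the cadherins is thus not shown.

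The promoters of the measured cadherins are shown because these 3 genes are neighbours on the chromosome. Of the 10 member genes, 6 matched RefSeq's promoter table (GRCh38.p14), with 7 starts. The motif searched was CACCTG on both strands (CAGGTG on the other), the E-box that the repressors ZEB1, ZEB2, SNAI1 and SNAI2 are known to bind, in the 250 bases before the start. It is present in 17.5% of the 35116 promoter windows of that length in the table, and 2.53% hold it 2 or more times. DSG2 holds 2 matches, which begin 116 and 232 bases before the start, and DSP, the linker with no large difference, also holds 2, which begin 85 and 178 bases before it. DSC2 holds 1 match, beginning 156 bases before its upstream start, and none before its other start, while DSC3, DSG3 and PKP1 hold none. Matches are in capitals.
DSG2, chr18:31497927-31498176, plus strand: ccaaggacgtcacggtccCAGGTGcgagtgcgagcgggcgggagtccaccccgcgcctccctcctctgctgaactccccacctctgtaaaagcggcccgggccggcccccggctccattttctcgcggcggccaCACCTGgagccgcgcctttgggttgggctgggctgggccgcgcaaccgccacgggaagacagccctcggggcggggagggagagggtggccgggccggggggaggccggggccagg
DSC2, chr18:31102422-31102671, minus strand: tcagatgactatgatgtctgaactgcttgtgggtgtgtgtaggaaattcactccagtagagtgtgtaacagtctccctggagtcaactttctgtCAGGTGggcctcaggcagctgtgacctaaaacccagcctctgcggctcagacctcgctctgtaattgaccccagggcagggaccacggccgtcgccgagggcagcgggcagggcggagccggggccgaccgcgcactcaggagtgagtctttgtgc
DSC3, chr18:31042743-31042992, minus strand: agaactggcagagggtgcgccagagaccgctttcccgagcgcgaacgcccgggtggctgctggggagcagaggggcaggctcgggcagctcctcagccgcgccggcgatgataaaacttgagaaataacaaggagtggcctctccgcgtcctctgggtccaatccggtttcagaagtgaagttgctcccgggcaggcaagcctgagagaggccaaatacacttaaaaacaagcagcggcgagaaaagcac
A match is a description of these letters only. The probe of ZEB2 and 1 of 2 SNAI2 probes were not well above background on any array. ZEB1 had fitted log2 ratios of 0.57 (adjusted p = 0.000476) for #3-1 and -0.07 (adjusted p = 0.306) for #4-7, with Cy3 well above background on 2 of 4 arrays. The study reports ZEB1 mRNA as lower in both clones than in the empty vector clone. The measured SNAI2 probe had log2 ratios of 0.28 and -0.10, and neither passed. SNAI1, well above background in both channels on all 4 arrays, was the one of these repressors to pass in both clones, with fitted log2 ratios of -0.32 (adjusted p = 0.00096) for #3-1 and -0.96 (adjusted p = 4.21e-05) for #4-7.

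The plakophilins, which bind the cadherin tails and recruit desmoplakin, were lower in Cy5 where they passed. PKP3, the plakophilin of most simple and stratified epithelia (probe A_23_P95810, chr11:394785-394844, plus strand of hg17), had Cy5 log2 intensities of 14.08 and 14.06 on the #3-1 arrays and 13.95 and 13.95 on the #4-7 arrays. Its Cy3 log2 intensities were 15.01 and 14.94 on the #3-1 arrays and 14.43 and 14.52 on the #4-7 arrays. Cy3 was the higher channel on every array, and the gap was wider on the #3-1 arrays. Fitted over both arrays, the log2 ratio was -0.91 ± 0.04 (SE, n = 2, adjusted p = 4.04e-05) for #3-1 and -0.52 ± 0.04 (SE, n = 2, adjusted p = 0.00021) for #4-7, or 1.88-fold and 1.43-fold lower. The #4-7 call was lost when the local background was plainly subtracted, with an unadjusted limma p of 0.00117.

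PKP2, the plakophilin of simple epithelia and heart, had 2 measured probes that differed in ratio, for #4-7 only under some processing. Probe A_23_P162466 (chr12:32836483-32836542, minus strand) had log2 ratios of -0.43 and -0.39 on the #3-1 arrays and -0.20 and -0.17 on the #4-7 arrays, so all 4 were below 0. Its fitted log2 ratio of -0.41 ± 0.03 (SE, n = 2, adjusted p = 0.000246) for #3-1 passed, and that of -0.19 ± 0.03 (SE, n = 2, adjusted p = 0.00459) for #4-7 did not, with an unadjusted limma p of 0.00154. The dimmer probe A_24_P133288, designed to another transcript entry of the gene, had log2 ratios between -0.09 and 0.00 on the 4 arrays, and neither clone passed. Its 95% intervals, -0.14 to 0.02 for #3-1 and -0.08 to 0.07 for #4-7, did not reach the fitted values of the other probe. With Feature Extraction's processed signals the dimmer probe moved to -0.16 for #3-1, where the other had -0.47, and to -0.23 for #4-7, where the other also had -0.23. PKP1, a plakophilin of stratified epithelia, was not well above background in either channel.

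The plakins ranged from almost no difference to the most negative ratio among the members, that of PPL for #3-1. PPL (probe A_23_P106906, chr16:4873069-4873128, minus strand) had Cy5 log2 intensities of 9.87 and 9.77 on the #3-1 arrays and 9.74 and 9.71 on the #4-7 arrays. Its Cy3 log2 intensities were 11.14 and 11.01 on the #3-1 arrays, and 10.20 and 10.25 on the #4-7 arrays. Cy5 varied by 0.16 at most across all 4 arrays, and Cy3 was the higher channel on each. In the fit, the log2 ratio was -1.26 ± 0.03 (SE, n = 2, adjusted p = 1.91e-05) for #3-1 and -0.50 ± 0.03 (SE, n = 2, adjusted p = 0.000203) for #4-7, or 2.39-fold and 1.41-fold lower. The #3-1 call held under all 13 alternative settings, and the #4-7 call was lost under 2 of them, where the log2 ratio was -0.54 and -0.55.

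EVPL, which pairs with periplakin, did not follow it. Its probe is A_24_P104512 (chr17:71514603-71514662, minus strand). Its Cy5 log2 intensities were 12.07 and 12.05 on the #3-1 arrays and 12.17 and 12.12 on the #4-7 arrays. Its Cy3 log2 intensities were 11.78 and 11.74 on the #3-1 arrays, and 12.58 and 12.58 on the #4-7 arrays. Cy5 thus lay above Cy3 on the #3-1 arrays and below it on the #4-7 arrays. The fitted log2 ratio was 0.30 ± 0.03 (SE, n = 2, adjusted p = 0.000648) for #3-1 and -0.43 ± 0.03 (SE, n = 2, adjusted p = 0.000208) for #4-7. The #3-1 call was lost under 5 of 13 alternative settings, among them leaving out either #3-1 array, and the #4-7 call under none of them.

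DSP, the obligate plakin of desmosomes (probe A_32_P157945, chr6:7531581-7531640, plus strand), had log2 ratios of -0.03 and -0.05 on the #3-1 arrays and -0.08 and -0.14 on the #4-7 arrays. The fitted log2 ratio was -0.04 for #3-1, with a 95% interval of -0.12 to 0.04 (adjusted p = 0.304). For #4-7 it was -0.11, with a 95% interval of -0.19 to -0.03 (adjusted p = 0.0295), and limma's unadjusted p of 0.014 missed the threshold. Both intervals leave out a change of the size fitted for PKP3 or PPL.

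The difference between the clones' ratios passed in 6 of the 12 member probes. The log2 ratio was lower for #3-1 than for #4-7 in 5 of them, 41.7% of the 12, where 11.5% of all probes passed in that direction. It was higher in 1, EVPL, or 8.33% of the 12, where 11.0% of all probes passed. The difference in log2 ratio, #3-1 minus #4-7, was -0.76 ± 0.05 (SE, adjusted p = 0.000296) for PPL, -0.53 ± 0.04 (adjusted p = 0.000477) for DSC2 and 0.73 ± 0.04 (adjusted p = 0.000224) for EVPL. It was -0.42 ± 0.04 (adjusted p = 0.00116) for DSG2 and -0.39 ± 0.05 (adjusted p = 0.00281) for PKP3. For DSC3 (adjusted p = 0.00356) no exact size can be read, as Cy3 was not well above background on either #4-7 array, and the fitted difference ran from -2.14 to -0.30 across the alternative settings. The calls of DSC3 and PKP3 were lost under 8 and 9 of 13 alternative settings, and that of DSG2 under 5. For DSP, both PKP2 probes and the 3 dim probes the difference did not pass. For DSP its 95% interval was -0.04 to 0.18.

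**Figure D2:**
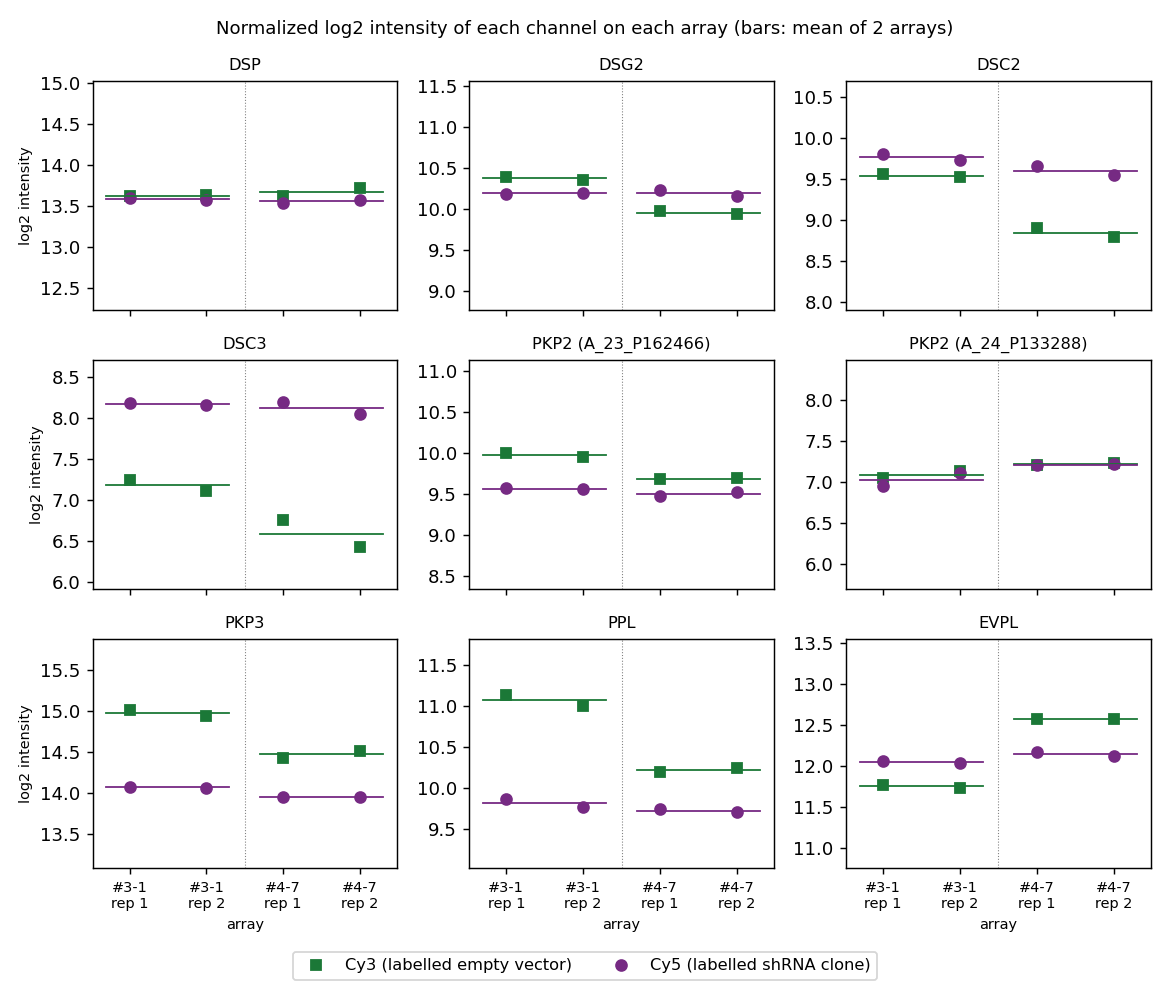
Normalized log2 intensity of Cy3 (squares, labelled empty vector) and Cy5 (circles, labelled shRNA clone) of each measured member probe on each of the 4 arrays, with a line at the mean of a clone's 2 arrays. The panels share the height of their axis but not its level. Between the #3-1 and the #4-7 arrays the squares step down in PPL, DSC2, DSC3, PKP3 and DSG2 and up in EVPL, while the circles stay close to level. Cy3 of DSC3 was not well above background on the #4-7 arrays.

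Taken by channel, the differences that passed were in Cy3. Between the #3-1 and the #4-7 arrays, Cy3 passed in 5 of the 12 member probes (DSG2, DSC2, PKP3, PPL and EVPL), or 41.7%, beside the 18.4% of all probes given above. Cy5 passed in 0 of the 12 by limma, with 3 of them at an unadjusted p under 0.05 and no adjusted p below 0.679. The Cy3 log2 intensity, #3-1 arrays minus #4-7 arrays, differed by 0.85 ± 0.06 (SE) for PPL, 0.69 ± 0.06 for DSC2, 0.51 ± 0.06 for PKP3 and 0.42 ± 0.05 for DSG2. For EVPL it differed by -0.82 ± 0.05. The Cy5 differences of these 5 probes were 0.09, 0.17, 0.12, -0.00 and -0.09. The Cy3 difference was the larger in size for 8 of the 9 measured member probes, and the dim PKP2 probe, with -0.13 in Cy3 and -0.19 in Cy5, was the exception. For DSP both were small, -0.04 in Cy3 and 0.03 in Cy5, and the Cy3 difference of DSC3 has no exact size. Over the 28569 probes well above background, the median absolute difference was 0.213 in Cy3 and 0.0577 in Cy5. This contrast was smaller with Feature Extraction's processed signals, at 0.329 in Cy3 and 0.213 in Cy5, and the Cy5 differences of the 5 probes were then 0.13 to 0.34. With those signals, Cy3 passed in 2 member probes and Cy5 in 1, a DSC3 probe (A_24_P344416) that was not well above background.

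**Figure D3:**
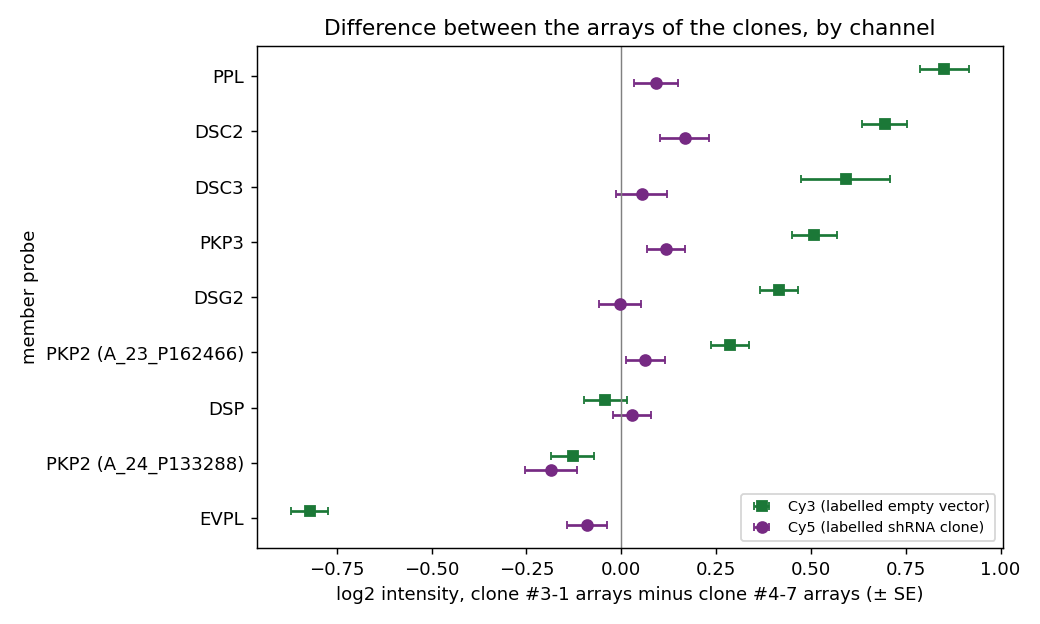
Difference in normalized log2 intensity between the #3-1 and the #4-7 arrays (± SE of the fit) of the 9 measured member probes, for Cy3 (squares) and Cy5 (circles). Cy5 lies within 0.19 of 0 for every probe, and Cy3 reaches from -0.82 for EVPL to 0.85 for PPL. The Cy3 value of DSC3 rests on #4-7 arrays where it was not well above background.

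Of the 7 other desmosome components, 4 were measured, and 2 of their 8 probes were lower in both clones and none higher. This count and those of the lists below cover all probes of a list, at an unadjusted limma p under 0.001 in each clone. By the same rule, 7.64% of all 41000 probes were lower and 7.76% higher in both clones. No probe these counts hold changed sign under 12 of the 13 alternative settings, all but the filter on dim probes, over which the ranges below run. JUP, plakoglobin, which binds the tails of both desmogleins and desmocollins, had fitted log2 ratios of -1.29 (adjusted p = 1.59e-05) for #3-1 and -0.93 (adjusted p = 3.56e-05) for #4-7. PERP, a membrane protein that desmosomes of stratified epithelia need, had -0.45 (adjusted p = 0.000128) and -1.01 (adjusted p = 2.3e-05). PKP4, a plakophilin relative also found at adherens junctions, had -0.03 and -0.06, and neither passed. DSC1, DSG1 and DSG4, cadherins of the upper epidermis and hair, were not well above background on any array.

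Of the 13 probes of 4 other plakins, 8 were lower and 2 higher in both clones, and across the alternative settings 5 to 9 were lower and 1 to 2 higher. Those lower belonged to DST, EPPK1 and PLEC, which tie intermediate filaments to junctions and other cell structures, and those higher to MACF1, which links actin and microtubules. The DST probe with the smallest p, A_24_P928522, had log2 ratios of -0.62 (adjusted p = 6.41e-05) and -1.29 (adjusted p = 1.69e-05), and MACF1 probe A_23_P391778 had 0.58 (adjusted p = 7.09e-05) and 0.56 (adjusted p = 8.81e-05). EPPK1 probe A_24_P357169 had -0.61 and -0.64, and PLEC probe A_23_P22119 had -0.66 and -0.44. The other 2 measured probes, of DST and PLEC, were below 0 without passing in both clones.

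For the desmosome-like junctions to the basement membrane and the keratins that desmosomes hold, more probes passed lower than higher in Cy5 in each clone. Of 11 hemidesmosome probes, 4 were lower and none higher in both clones: 3 of LAMA3, of which 2 were not well above background in Cy5, and 1 of CD151. The alternative settings gave 1 to 5 lower and 0 to 1 higher. By clone, 7 were lower and 1 higher for #3-1, and 6 lower and none higher for #4-7. ITGB4 passed in opposite directions, with 0.75 and -0.36. LAMA3, an alpha chain of epithelial laminin, had -2.14 (adjusted p = 7.51e-06) and -1.30 (adjusted p = 1.84e-05) with probe A_23_P89780, and CD151, a tetraspanin bound to integrins, had -0.30 and -0.27. Of 9 simple epithelial keratin probes, 4 were lower and none higher in both clones, all of them of KRT8 and KRT18, the keratin pair of simple epithelia, and the alternative settings gave 1 to 5. KRT8 probe A_23_P14072 had -0.69 (adjusted p = 8.02e-05) and -0.90 (adjusted p = 4.94e-05), and KRT18 probe A_24_P42136 had -0.26 and -0.44. Of 17 probes for cornified envelope genes, the structure in which PPL and EVPL were first described, 1 was lower in both clones, where 7.64% of all probes were. It was of CSTA, a protease inhibitor, with -0.42 (adjusted p = 0.000901) and -1.93 (adjusted p = 1.79e-05), and the count was 0 to 2 across the alternative settings.

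At adherens junctions, the actin-linked partners of desmosomes, 3 of 17 probes were lower and none higher in both clones. Across the alternative settings 1 to 4 were lower and 0 to 1 higher. By clone, 8 were lower and none higher for #3-1, while for #4-7 the list was split, with 4 lower and 4 higher. CDH1, E-cadherin, had log2 ratios of -2.60 (adjusted p = 5.83e-06) and -1.35 (adjusted p = 1.61e-05), and CTNND1, the catenin that binds its tail near the membrane, had -0.66 and -0.33 with probe A_23_P251316. The difference of CDH1 in Cy3 between the #3-1 and the #4-7 arrays was 1.25 and that in Cy5 -0.01. EPCAM, an epithelial surface adhesion molecule, had -1.04 (adjusted p = 1.95e-05) and -0.44 (adjusted p = 0.000178). VIM, vimentin, the intermediate filament of mesenchymal cells, had 4.45 (adjusted p = 3.87e-06) and 2.38 (adjusted p = 4.93e-06) with probe A_23_P161190. FN1, fibronectin, was lower in both clones with 1 of its 3 probes, at -0.53 and -0.49.

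Among 22 probes of transcription factors and regulators of epithelial genes, 7 were lower and none higher in both clones, and 4 to 8 were lower across the alternative settings. The list mixes activators with the repressors named above, and SNAI1 is 1 of the 7. By clone, 7 were lower and 3 higher for #3-1 (ZEB1, OVOL2 and KLF5), and 10 lower and 1 higher for #4-7 (ESRP2). KLF5 probe A_23_P53891 passed in opposite directions, with 0.47 and -0.36. ELF3, an epithelial ETS factor, had -2.04 (adjusted p = 1.02e-05) and -0.93 (adjusted p = 4.76e-05), and KLF4, a zinc finger factor of differentiating epithelium, had -0.54 (adjusted p = 7.9e-05) and -1.53 (adjusted p = 1.2e-05). ESRP1, an epithelial splicing regulator, had -1.39 and -0.48. GRHL2, a grainyhead factor that activates epithelial junction genes, was not well above background in Cy5 on any array, and Cy5 was at least 3.94-fold lower than Cy3 for #3-1 (adjusted p = 1.46e-05) and at least 1.20-fold lower for #4-7 (adjusted p = 0.00294).

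**Figure D4:**
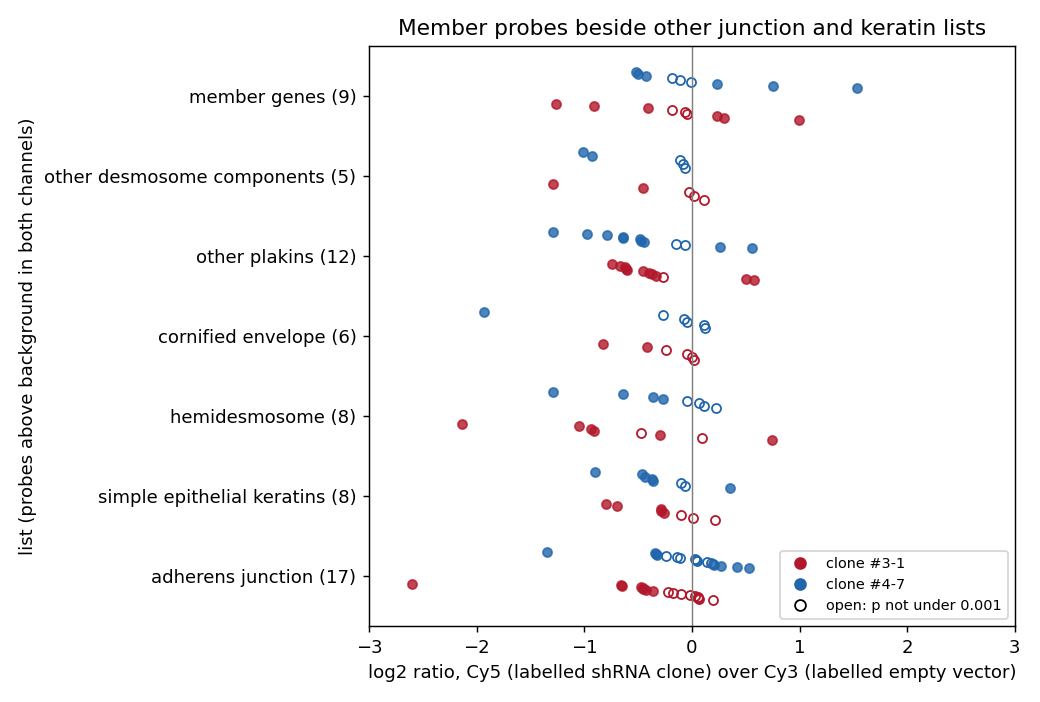
Log2 ratio of Cy5 (labelled shRNA clone) over Cy3 (labelled empty vector) of each measured probe, for the member genes and 6 gene lists, with the number of probes in brackets. Red points are #3-1 and blue points #4-7, and open points did not pass. Plakin, keratin and hemidesmosome points lie mainly left of 0, though hemidesmosome points of #4-7 reach both sides. Adherens junction and cornified envelope points also lie on both sides. The member genes spread to both sides too, from -1.26 for PPL to 1.00 for DSC3, both for #3-1. The DSC3 point for #4-7 lies further right, with Cy3 not well above background, and stands for a bound only.

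The members were mixed, and these lists were not uniform either. CDH1, JUP, KRT8, PKP3, PPL and part of the KRT18 probes were lower in Cy5 in both clones. The MACF1 probes were higher in both, and KRT19, ITGB4 and a KLF5 probe passed in opposite directions, as EVPL did among the members. DSC2 and DSC3 were the only member probes higher in both. Whether this spread among desmosome genes is wider than that of other junction lists was not tested.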

How the data were processed

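The authors deposited Agilent Feature Extraction 8.5.1.1 output (version from the submitters' processing notes): spot and background intensity and processed intensity per channel, and log10 ratios of Cy5 over Cy3. The authors' table of log10 ratios matched these files by label to 0.005 in all 173504 values. The positions are of hg17 in the file headers. Each array holds 45015 features, of which 1639 are controls, and 87 to 125 outlier spots were left out.

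R 4.3.3 and limma 3.58.1 were used, after the methods of the study: normexp background correction (offset 50), log2 scale, loess within and quantile normalization between arrays, averaged spots, a linear model with 1 term per clone, and empirical Bayes tests at an unadjusted p under 0.001 over all 41000 probes, with Benjamini-Hochberg adjusted p beside it. The methods name no background method, and no dye. By the labels the control is the same on all arrays, and the ratio against 0 leaves out the control's spread. Tested on simulated data, 193 of 200 changed probes were recovered. A single-channel fit was added after the data were seen. A probe not well above background in a channel on both arrays of a clone got a bound, after loess and Aquantile normalization, and a dye bias is open there as no array has swapped dyes. Probes were named by the array's gene names, and different probes of a gene were not averaged. The precision is limited by 2 arrays per clone. All 4 arrays lie on 1 slide.

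The members and gene lists were chosen with earlier results of these data known. All members are described. Other genes named passed in both clones with the same sign, at most 4 genes per list by the smallest F test p, plus JUP, CDH1, VIM, EPCAM, ZEB1, ZEB2, SNAI2 and GRHL2. SNAI1, PKP4, DSC1, DSG1, DSG4, KRT19, ITGB4, KLF5, OVOL2 and ESRP2, and the chromosome 18 neighbours, were named after their values were seen. The alternatives were other background corrections, the processed signals, that table, no quantile normalization, only probes above background, an intensity trend, the adjusted p under 0.05, a replicate block and leaving out each array. A cell type marker is not reported here.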

Additional observations from a re-analysis of the deposited data

Results flagged for a closer look

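For 6 member probes, the Cy5 over Cy3 ratio differed between the clones by the test of the difference itself (#3-1 minus #4-7, limma, unadjusted p under 0.001). The log2 difference was -0.76 for PPL, -0.54 for DSC3, -0.53 for DSC2, -0.42 for DSG2 and -0.39 for PKP3, and 0.73 for EVPL. Of the same 6 probes, 5 also differed in Cy3 between the clones' arrays and none in Cy5. The value of DSC3 is a fitted one with no exact size, as its Cy3 was not well above background on the #4-7 arrays, and it ran from -2.14 to -0.30 across the alternative settings. The part of the dye assignment in these differences was not tested.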

How the results depend on the processing

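Of the 6 member probes past the threshold in each comparison, 3 remained in number for #3-1 with Feature Extraction's processed signals and 3 for #4-7 with plain background subtraction. For the difference between the clones 3 passed with a normexp offset of 0 and 3 with plain subtraction. Leaving out each array in turn gave 4 to 5 for #3-1, 5 for #4-7 and 3 to 4 for the difference, with 3 without #3-1 replicate 1 or without #4-7 replicate 2. In Cy3 alone, 5 probes passed, 2 with processed signals, 3 with a replicate block, and 3 to 4 with an array left out, with 3 without either #3-1 array. In Cy5 alone, 0 passed and 1 with processed signals, and 0 with any array left out. The dim PKP2 probe A_24_P133288 turned sign, with no call, for #4-7 without #4-7 replicate 2 (0.0044, and -0.0136 without #4-7 replicate 1), and for the difference with processed signals (0.0755) and the authors' own table (0.0756). The cause of these shifts was not tested. Same-numbered arrays did not deviate together (correlation of -0.02 of replicate differences between clones), so the numbers do not pair the arrays. With the replicate block, 5 member probes passed in each of the 3 comparisons. The calls of PPL, PKP3 and PKP2 (A_23_P162466) for #3-1 and of DSC2 and EVPL for #4-7 held under all 13 settings, as did the differences between clones of DSC2 and EVPL. Signal over background limits DSC3, of which Cy3 gave only a bound for #4-7, and DSG3 and PKP1, which gave no ratio.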
